A study of Homo sapiens with 4 samples.

Results

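The 22q11 segment described here is the stretch of human chromosome 22 around BCR, read through ribosome footprints that cross splice junctions. On the GRCh38 build, its junctions start between positions 19410779 and 24952773. Its members are the annotated junctions that start in a fixed window and carry a single gene identifier, with BCR and SERPIND1 left out. They number 1581 of the 350863 junctions in the tables and belong to 232 of 35224 genes, of which 89 are protein coding. The window was chosen on the ratio of K562 to HepG2 reads in these same tables. The ratios below are therefore a description and carry no test. The segment is split at BCR, which spans chr22:23179704-23318037. Of the members, 1043 junctions in 163 genes lie before it and 538 junctions in 69 genes lie after it.

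Band 22q11 is known for low copy repeats, for the deletion that causes DiGeorge syndrome, and for the immunoglobulin lambda locus. BCR is the gene in which chromosome 22 breaks to form the BCR-ABL1 fusion of chronic myelogenous leukemia, and K562 carries that fusion, known to be in extra copies together with chromosome 22 sequence before the breakpoint. Ribosome footprints are short pieces of messenger RNA shielded from nuclease by a ribosome, so a junction is read where a ribosome sat across 2 joined exons.

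The study profiled ribosome footprints in 2 samples of K562, an erythroid-like leukemia line, and 2 samples of HepG2, a liver tumor line with hepatocyte traits. Both lines were grown with no treatment named in the labels, and all lysates held cycloheximide, which stalls elongating ribosomes. Junction counts come as 1 table per line, with both samples of a line pooled, so no value has a replicate check. Intervals are exact 95% intervals of counting error only.

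The tables held 7487508 uniquely mapped junction reads in K562 and 9927809 in HepG2, which were 74.0% and 82.7% of all mapped junction reads. The line labels were checked on marker genes. The 8 markers of K562 summed to 37626 reads in K562 and 10 in HepG2. VIM, an intermediate filament gene and no erythroid marker, gave 22706 and 9 of these, and 6 of the erythroid and blood cell markers were at 0 in HepG2. The 8 liver markers summed to 253 reads in K562, where 2 were at 0, and 1025146 in HepG2. MTAP, a gene known to be deleted in K562, had 0 reads there and 249 in HepG2.

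The exon sequences joined at the most-read coding junction are shown for 7 genes that mark the course of the ratio along the segment. The first 4 genes lie before BCR and the last 3 after it. The 15 last bases of the upstream exon are in lower case and the 15 first bases of the downstream exon are in capitals, 5′ to 3′ along the transcript, from GENCODE release 29. The coordinates are those of the intron removed.
UFD1, chr22:19454831-19455679, minus strand: tggagatattaaaagAGGAATTCCCAATTA
CDC45, chr22:19484006-19494326, plus strand: acacggttagaagagGAGATAGTGGAGCAA
PPIL2, chr22:21666132-21669912, plus strand: ccaaaaggacaaaatGTACATTACCTGTGC
PRAME, chr22:22551090-22556811, minus strand: cgaaggcgtttgtggGGTTCCATTCAGAGC
SMARCB1, chr22:23803423-23816769, plus strand: cctggaacatgaatgAGAAGTTGATGACGC
CABIN1, chr22:24035521-24036088, plus strand: atctctctgaatatgATTCGAATTGCAGCC
SNRPD3, chr22:24557801-24567983, plus strand: aacatgaactgccagATGTCCAACATCACA
These junctions were read 1770 times in K562 and 296 times in HepG2 for UFD1, 397 and 84 times for CDC45, 1256 and 165 times for PPIL2, and 2641 and 2 times for PRAME. After BCR, the counts were 255 in K562 and 624 in HepG2 for SMARCB1, 220 and 200 for CABIN1, and 699 and 676 for SNRPD3. The 4 junctions before BCR all had more reads in K562, whereas SMARCB1 had more in HepG2 and the other 2 had close to equal counts. The 7 genes were picked with earlier results of these data known, so this contrast followed from the choice. Genes before BCR with more reads in HepG2, such as AIFM3 and GNAZ, were not among them. The CABIN1 junction was an exception within its gene. Of the 27 CABIN1 junctions with 10 or more reads, 25 lay on the HepG2 side, and the gene had 464 reads in K562 against 856 in HepG2.

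The segment held 67029 unique reads in K562 and 20213 in HepG2, which was 0.928% and 0.210% of the reads at single-gene junctions. The stretch before BCR held 63391 of the K562 reads (0.878%, 0.871 to 0.885%) and 14789 of the HepG2 reads (0.154%, 0.151 to 0.156%). The stretch after BCR held 3638 reads in K562 (0.0504%, 0.0487 to 0.0520%) and 5424 in HepG2 (0.0565%, 0.0550 to 0.0580%). The segment's surplus in K562 thus lay before BCR. Footprints do not separate the number of messages from the ribosomes on each, and no DNA measure was used here, so gene copy number was not measured.

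Unique reads were summed per gene and scaled to the effective depth of each table, which TMM factors set. A gene counted as measured with 20 or more reads over both tables, and a floor of 3 reads stood in for a count of 0. Of the 232 genes, 78 had a unique read and 55 were measured, 41 before BCR and 14 after. A call toward a line needs the full interval of the ratio to lie past 2-fold. Over all 10957 genes measured, 16.8% were called higher in K562 and 21.9% higher in HepG2. In the segment, 28 genes were called higher in K562, 8 higher in HepG2 and 19 neither. Because the segment was chosen on this ratio, nothing is read from its share of calls.

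Before BCR, 37 of 41 measured genes had a ratio above 1, with 27 called higher in K562 and 2 higher in HepG2. The median log2 ratio of K562 to HepG2 was 2.16, a 4.47-fold surplus in K562, and the middle 50% of genes lay between 1.01 and 2.87. After BCR, 3 of 14 measured genes had a ratio above 1, with 1 called higher in K562 and 6 higher in HepG2. Their median log2 ratio was -1.40, a 2.65-fold surplus in HepG2, with a middle range of -2.46 to -0.23. The medians of the stretches differed by 3.57 on the log2 scale. With at least 20 reads asked of each table, 27 genes before BCR gave a median of 2.11 and 8 genes after it gave -0.84, a 1.79-fold surplus in HepG2, so the size of the shift after BCR depended on which weakly read genes were kept.

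The rest of chromosome 22 held 216 measured genes with a median log2 ratio of -0.35, of which 33 were called higher in K562 and 47 higher in HepG2. The segment's median of 1.61 was higher by 1.96 on the log2 scale. The 17 measured genes between the centromere and the window had a median of 0.73, and 7 of them were called higher in K562 and 1 in HepG2. The 199 genes beyond the window had a median of -0.44. Both stretches before BCR thus had positive medians, the one inside the window the higher, and both stretches after BCR had negative ones.

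**Figure D1:**
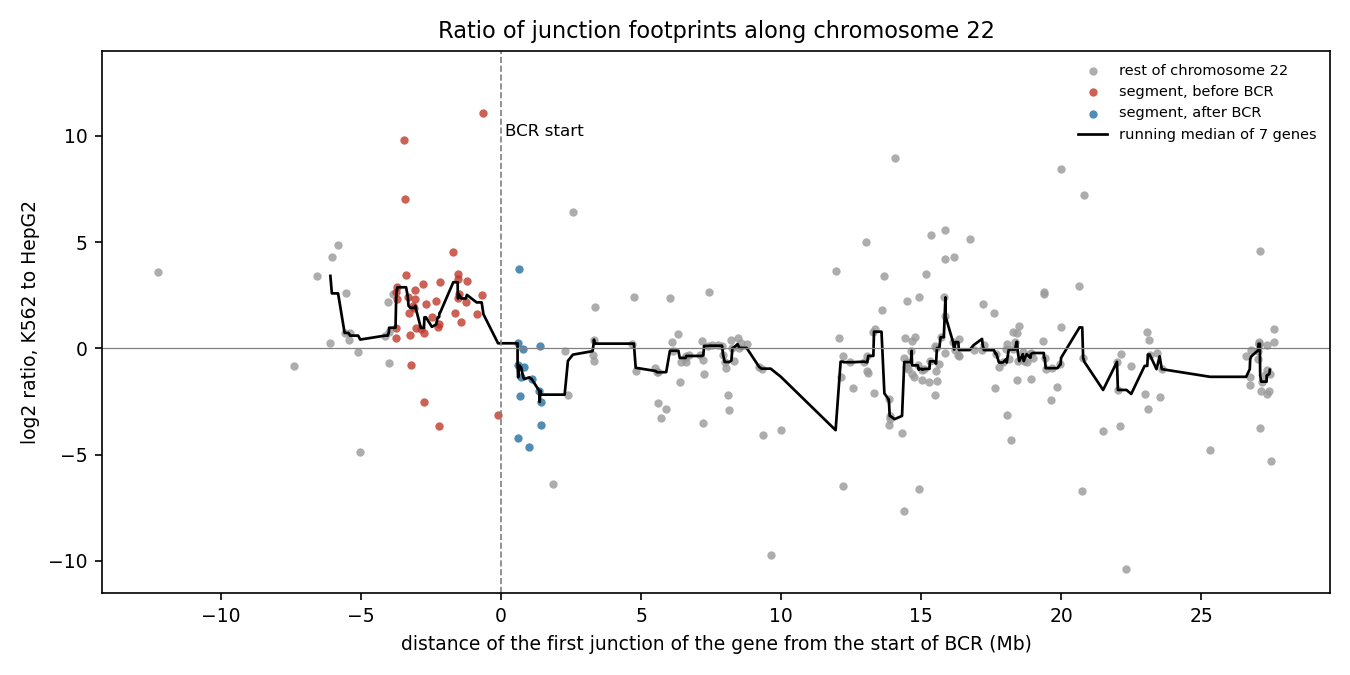
Log2 ratio of K562 to HepG2 reads of each measured gene of chromosome 22 against its distance from the start of BCR in Mb, with segment genes before BCR in red, those after it in blue, other genes in grey, a dashed line at BCR and a black line for the running median of 7 neighbouring genes. Most red points lie above 0 and most blue points below it, and the running median drops from 1.61 at PRAME to -0.80 at MMP11.

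The place of the change was followed with a running median of 7 neighbouring genes. It was 2.16 at ZNF280B, a zinc finger gene, and 1.61 at PRAME, a tumor antigen gene and the last gene before BCR called higher in K562. It was 0.24 at both GNAZ and CHCHD10, the measured genes nearest to BCR on either side, and -0.80 at MMP11, the next gene after. It reached -2.52 at SNRPD3. GNAZ encodes an alpha subunit of heterotrimeric G proteins. It was read 0 times in K562 against 26 in HepG2, a HepG2 surplus of 8.71-fold against the floor and at least 6.59-fold by the exact interval. The neighbours of GNAZ, RSPH14 and RAB36, had 0 reads in K562 and 7 and 14 in HepG2, too few to be measured. CHCHD10, a small mitochondrial protein gene, had 441 and 372 reads, a ratio of 1.18 (1.03 to 1.36).

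The members just inside and just outside the window are given for its bounds. HIRA, a histone chaperone gene, crosses the lower bound. Its 2 junctions inside was read 64 times in K562 against 10 in HepG2, a log2 ratio of 2.67, and its junctions outside had 211 and 36, a log2 ratio of 2.54. MRPL40, a mitochondrial ribosomal protein gene, was the next inside with 803 and 408 reads, a ratio of 1.96 (1.74 to 2.21). CLTCL1, a clathrin heavy chain gene, lay just outside with 150 and 87 reads, a log2 ratio of 0.78. At the upper bound, LRRC75B was read 2 times in K562 against 24 in HepG2, and GGT1 had 22 and 126. KIAA1671 crosses the upper bound, with 1 junction inside that had 0 reads in both lines. Its junctions outside had 0 and 246 reads, and CRYBB2P1, just outside, had 22 and 24. The named genes did not change side at either bound, though CRYBB2P1 was near equal with a log2 ratio of -0.13.

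**Figure D2:**
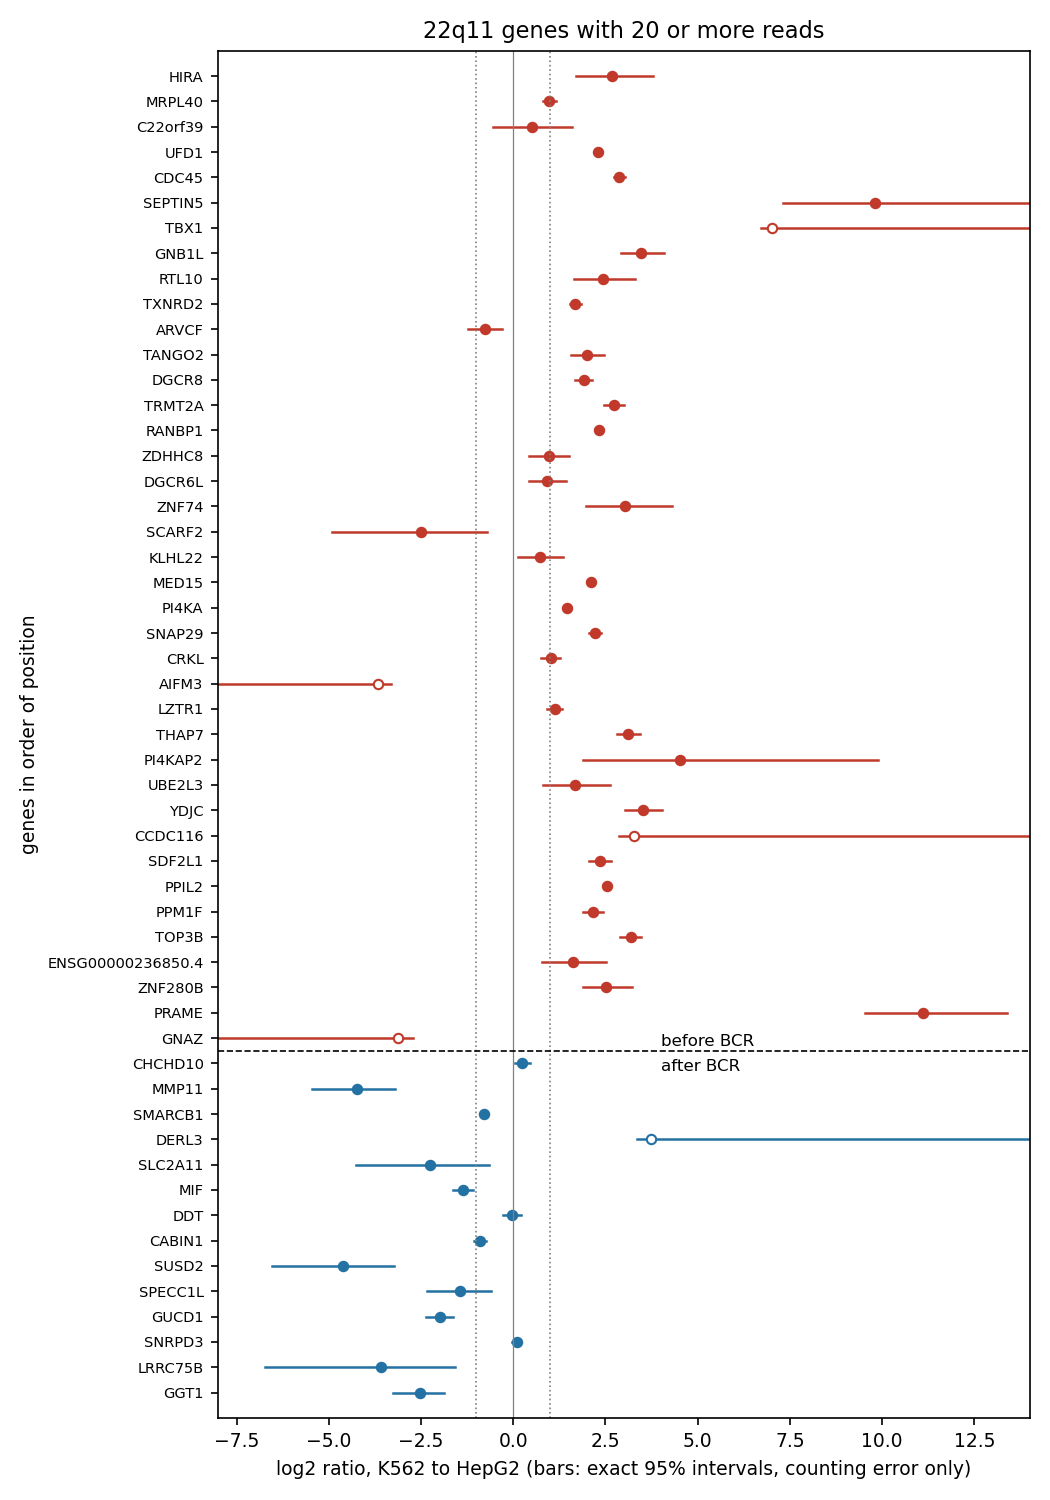
Log2 ratio of K562 to HepG2 reads with its exact 95% counting interval for 53 measured genes of the segment, in order along chromosome 22, with dotted lines at 2-fold, open points for genes at 0 reads in a line, drawn at the floor, and bars that meet the frame where the interval runs past it. Of the 39 genes drawn before BCR 35 lie right of 0, and of the 14 after BCR 11 lie left of it.

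Members were also grouped by function in lists chosen with earlier results of these data known. Counts per list thus rank no function. Before BCR, 27 of 41 measured genes were called higher in K562 whatever their list, against 16.8% of all genes measured. Genes of replication, chromatin and transcription come first. Of 14 members, 11 were measured, 9 were called higher in K562, none (0) higher in HepG2 and 2 neither, with a median log2 ratio of 2.87. All 9 measured members before BCR were among those called, while SMARCB1 and CABIN1, after BCR, were not. CDC45, a part of the helicase that opens replication forks, was read 2820 times in K562 against 383 in HepG2, a ratio of 7.33 (6.58 to 8.17). TOP3B, a topoisomerase that acts on DNA and RNA, had 1092 and 120 reads, a ratio of 9.06 (7.49 to 11.03). MED15, a subunit of the Mediator complex, had 3267 and 755 reads, a ratio of 4.31 (3.98 to 4.67). All 3 were read in both lines and lay well past 2-fold.

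The other genes of this group spanned a wider range. PRAME was read 6586 times in K562 against 3 in HepG2, a ratio of 2185 (747 to 10597), and the highest lower bound in the segment. TBX1, a T-box transcription factor gene in the DiGeorge deletion, had 390 and 0 reads, 129-fold higher in K562 against the floor and at least 105-fold by the exact interval. The zinc finger genes ZNF74 and ZNF280B had 66 and 138 reads in K562 against 8 and 24 in HepG2. THAP7, which encodes a DNA-binding repressor, had 851 and 98 reads, a ratio of 8.64 (7.004 to 10.76). On the other side of BCR, SMARCB1, a core subunit of the SWI/SNF chromatin remodeller, was read 968 times in K562 against 1672 in HepG2, a HepG2 surplus of 1.74-fold (1.60 to 1.88). CABIN1, a partner of calcineurin and of the HIRA complex, had 464 and 856 reads, a HepG2 surplus of 1.85-fold (1.65 to 2.08).

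RNA processing genes had 5 members, of which 4 lie in the segment and 3 were measured, with 2 called higher in K562 and a median of 1.91. DGCR8, the partner of DROSHA in microRNA processing, was read 798 times in K562 against 212 in HepG2, a ratio of 3.75 (3.22 to 4.38). TRMT2A, a tRNA methyltransferase, had 891 and 133 reads, a ratio of 6.67 (5.55 to 8.06). SNRPD3, a core protein of spliceosomal ribonucleoproteins that lies after BCR, had 1120 and 1041 reads, a ratio of 1.07 (0.983 to 1.17). PPIL2, a cyclophilin-type protein outside the lists, had 5652 and 961 reads, a ratio of 5.85 (5.47 to 6.27).

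Genes of ubiquitin and protein quality control had 6 of 7 members measured, with 3 called higher in K562, none (0) higher in HepG2 and a median of 1.99. UFD1, which works with VCP to extract ubiquitylated proteins, was read 9049 times in K562 against 1828 in HepG2, a ratio of 4.93 (4.68 to 5.18). SDF2L1, a protein of endoplasmic reticulum chaperone complexes, had 110 reads in HepG2 and a ratio of 5.08 (4.14 to 6.30). DERL3, a factor in the removal of misfolded proteins from the endoplasmic reticulum, had 40 and 0 reads, 13.3-fold higher in K562 against the floor and at least 10.3-fold by the exact interval. DERL3 was the only gene measured after BCR that was called higher in K562. LZTR1, an adaptor of a ubiquitin ligase for RAS proteins, had 640 and 292 reads, a ratio of 2.18 (1.90 to 2.51), and was not called. UBE2L3, a ubiquitin-conjugating enzyme, had 48 and 15 unique reads, but only 4.05% of its mapped reads were unique, so its ratio rests on a small part of its reads.

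Signalling and lipid kinase genes had 13 members, of which 6 were measured, all before BCR. Of these, 4 were called higher in K562 and 1, GNAZ, higher in HepG2, with a median of 1.34. PI4KA, a phosphatidylinositol 4-kinase, was read 2498 times in K562 against 903 in HepG2, a ratio of 2.75 (2.55 to 2.97). PPM1F, a protein phosphatase, had 598 and 133 reads, a ratio of 4.47 (3.70 to 5.44). GNB1L, a WD repeat protein, had 312 and 28 reads, a ratio of 11.1 (7.52 to 17.0). CRKL, an adaptor known as a substrate of the BCR-ABL1 kinase, had 365 and 180 reads, a ratio of 2.02 (1.68 to 2.43), and was not called.

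Genes of mitochondria formed a list of 7. All 7 members were measured, with 2 called higher in K562, 1 higher in HepG2 and 4 neither, and a median of 0.63. TXNRD2, the mitochondrial thioredoxin reductase, was read 1567 times in K562 against 487 in HepG2, a ratio of 3.20 (2.89 to 3.55). TANGO2 had 217 and 54 reads, a ratio of 3.999 (2.96 to 5.49). AIFM3, a relative of apoptosis-inducing factor, was read 0 times in K562 against 38 in HepG2, a HepG2 surplus of 12.7-fold against the floor and at least 9.86-fold by the exact interval. AIFM3 and GNAZ were the genes before BCR called higher in HepG2, and AIFM3 lies between CRKL and LZTR1, whose ratios were both near 2.

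Genes of trafficking, adhesion and the cytoskeleton had 12 members, of which 11 lie in the segment and 10 were measured, with 3 called higher in K562 and 2 higher in HepG2. Their median was 0.08, but the 7 before BCR had a median of 0.96 and the 3 after it -4.23. RANBP1, a cofactor of the RAN transport cycle, was read 12011 times in K562 against 2365 in HepG2, a ratio of 5.05 (4.84 to 5.28). Its log2 ratio of 2.34 moved to 1.72 without its most-read junction and to 1.99 with all mapped reads. SEPTIN5, a filament-forming GTPase, had 898 and 1 reads, a ratio of 894 (160 to 35336). SNAP29, a SNARE of membrane fusion, had 1645 and 352 reads, a ratio of 4.65 (4.14 to 5.23). ARVCF, a catenin of cell junctions, had 67 and 113 reads and SCARF2, a scavenger receptor family gene, had 3 and 17. Both had ratios below 1, at 0.590 (0.429 to 0.805) and 0.176 (0.0330 to 0.607), and neither was called. After BCR, the matrix metalloprotease gene MMP11 was read 8 times in K562 against 149 in HepG2, a HepG2 surplus of 18.7-fold (9.26 to 44.2). SUSD2, a membrane protein gene, had 4 and 98 reads, a HepG2 surplus of 24.6-fold (9.32 to 92.2).

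Genes of detoxification and small-molecule metabolism had 14 members, of which 13 lie in the segment and 6 were measured, with 1 called higher in K562 and 3 higher in HepG2. YDJC, the only measured member before BCR, was read 425 times in K562 against 37 in HepG2, a ratio of 11.4 (8.16 to 16.5). The 5 measured members after BCR had a median of -2.00. GUCD1, a gene with a guanylyl cyclase domain, had 79 and 314 reads, a HepG2 surplus of 3.99-fold (3.11 to 5.18). GGT1, a gamma-glutamyltransferase, had a HepG2 surplus of 5.76-fold (3.64 to 9.51). MIF, a cytokine with tautomerase activity, had 165 and 423 reads, a HepG2 surplus of 2.58-fold (2.15 to 3.10). With the junctions it shares with AP000350.4 counted, its log2 ratio moved from -1.37 to -0.48 and it was no longer among the 3 called. DDT, a relative of MIF, had 256 and 261 reads, a ratio of 0.976 (0.818 to 1.16). Only 42.7% of mapped reads of GGT1 and 42.3% of those of DDT were unique.

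Other measured members are given in brief. MRPL40, C22orf39, ZDHHC8, DGCR6L and KLHL22 had K562 to HepG2 ratios from 1.42 to 1.96 and were not called. RTL10, with 87 and 16 reads, and CCDC116, with 29 and 0, were called higher in K562. PI4KAP2, a pseudogene copy of PI4KA with 23 and 1 reads, was called too, but 9.60% of its mapped reads were unique. ENSG00000236850.4, which has no symbol here, had 49 and 16 reads and was not called. After BCR, LRRC75B, with 2 and 24 reads, was called higher in HepG2, while SLC2A11, a sugar transporter family gene with 4 and 19, and SPECC1L, a cytoskeletal linker gene with 17 and 46, were not.

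**Figure D3:**
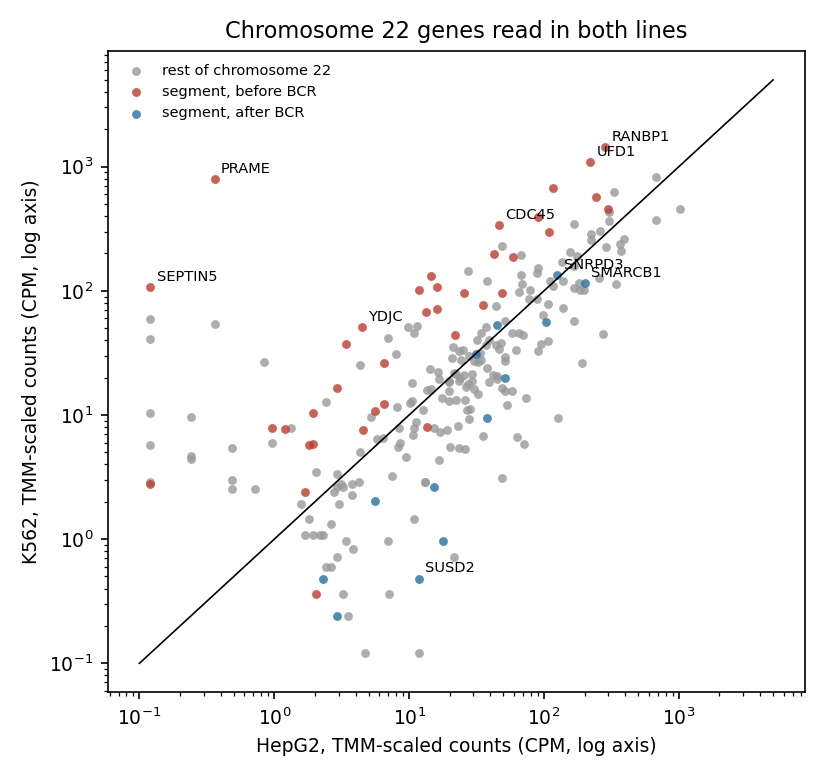
TMM-scaled junction counts (CPM) in HepG2 (horizontal, log axis) and K562 (vertical, log axis) for measured genes of chromosome 22 read in both lines, with segment genes before BCR in red, those after it in blue, other genes in grey and a line of equal levels. Most red points lie above the line, PRAME (6586 reads in K562, 3 in HepG2) and SEPTIN5 (898 and 1) farthest from it, and most blue points lie on or below it; levels are not per length, so genes are not to be compared along the line.

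In the segment 177 genes fell below the minimum, of which 154 had no unique read in either table. The B cell genes were among them. Of 7 genes in that list 4 lie in the segment, and none (0) reached 20 reads. Among the 23 unmeasured genes with some reads, ZNF280A had 14 reads in K562 and 3 in HepG2, TUBA3FP 12 and 0, P2RX6, an ATP receptor gene, 11 and 0, and HIC2 10 and 3. After BCR, GGT5 had 14 and 0, PCAT14 13 and 0, and AP000347.2 0 and 13. These were chosen after their values were seen and are too few to be compared. The 54 variable genes and pseudogenes of the immunoglobulin lambda locus had 0 reads in both lines, also among all mapped reads.

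Within a gene, single junctions mostly lay on the same side as the gene. This was counted in genes with 3 or more junctions of 10 or more reads. Before BCR, 286 of 293 junctions in 27 such genes lay on the side of their gene's ratio, and in 23 of the 27 all of them did. After BCR this held for 57 of 61 junctions in 7 genes, and in 4 of the 7 for all. The junctions share reads with the gene total, so these counts describe how evenly a ratio was spread over a gene. In CDC45 all 19 junctions lay between log2 ratios of 1.63 and 4.27, in UFD1 all 14 between 1.52 and 5.37, and in PPIL2 all 23 between 0.25 and 3.87. PI4KA had 41 of 44 junctions toward K562.

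**Figure D4:**
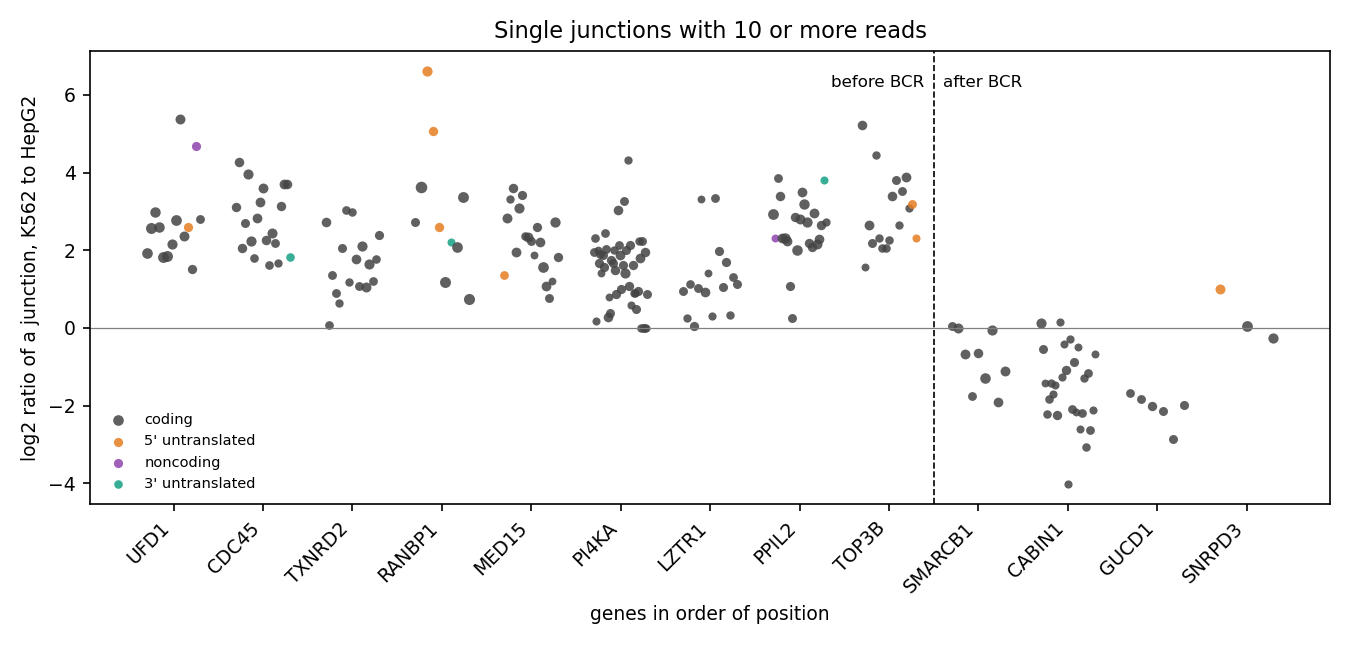
Log2 ratio of K562 to HepG2 reads of single junctions with 10 or more reads (points, larger with more reads, coloured by transcript part) in well-read segment genes, in order along chromosome 22. In CDC45 all 19 junctions lie above 0, whereas in SMARCB1 8 of 9 lie below 0. Among these 8, chr22:23791868-23793558 had 170 reads in each line and chr22:23816937-23825224 had 219 in K562 and 228 in HepG2, both near equal.

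Junctions in the 5′ untranslated region took unequal shares of the reads of RANBP1 and SNRPD3 in the lines. In RANBP1 they held 5.63% (5.22 to 6.06%) in K562 and 0.803% (0.484 to 1.25%) in HepG2. Among all mapped reads, a comparison added once the values were known, the RANBP1 shares were 17.8% and 8.53%, a much smaller fold between the lines. Its other junctions had a ratio of 4.81 (4.60 to 5.03). In SNRPD3 the 5′ untranslated junctions held 17.3% (15.1 to 19.7%) and 9.32% (7.62 to 11.2%), and the other junctions a ratio of 0.976 (0.891 to 1.07). In UFD1 the shares were 0.807% and 0.656% and their intervals overlapped. RTL10, ZNF280B and CCDC116 were read almost wholly through 5′ untranslated junctions, with 87 of 87, 138 of 138 and 28 of 29 reads in K562. Their ratios thus describe those junctions.

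Over the whole segment, 5′ untranslated junctions held 5.79% (5.62 to 5.97%) of the K562 reads and 1.92% (1.73 to 2.12%) of the HepG2 reads. PRAME alone gave 1740 of the 3883 such reads in K562, and without it the K562 share was 3.55% (3.40 to 3.70%). The share was also higher in K562 on the rest of chromosome 22, at 3.37% against 1.61%, and on the other chromosomes, at 6.52% against 3.32%. The higher share in K562 was thus found on and off the segment.

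The share of reads that a junction takes at its donor or acceptor does not depend on the level of the gene, so it was not used in choosing the window. With at least 20 reads at the site in each table, 82 junctions at 55 sites in 21 segment genes could be compared. A difference was counted when the shares lay 20 points or more apart and their intervals did not overlap, which held for 3.85% of 24466 junctions over all genes. In the segment it held for 6 junctions, 7.32%, all in UFD1 and RANBP1. By gene, it held in 2 of the 21 segment genes and in 451 of 5184 over all genes. Junctions at the same site have linked shares, so the 6 are not separate changes. The joined exon sequences show what differs at these paired sites, again with the downstream exon in capitals.
RANBP1, upstream acceptor, chr22:20126369-20126951, plus strand: agagagaaaagaaagCAGGATCAGGCAAAA
RANBP1, downstream acceptor, chr22:20126369-20126954, plus strand: agagagaaaagaaagGATCAGGCAAAAATG
UFD1, upstream donor, chr22:19475101-19475495, minus strand: agggcctaatgacagTAATTATGCCACCCT
UFD1, downstream donor, chr22:19475101-19475469, minus strand: agaaaggagggaagaTAATTATGCCACCCT
The RANBP1 acceptors lie 3 bases apart, both in coding sequence. The upstream one took 1528 of 3055 reads at the donor in K562 (50.02%, 48.2 to 51.8%). In HepG2 it took 147 of 1057 (13.9%, 11.9 to 16.1%). The UFD1 donors lie 26 bases apart. The upstream one, annotated as noncoding, had 78 of the 150 K562 reads (52.0%, 43.7 to 60.2%) and 0 of the 25 HepG2 reads, where the interval reaches 13.7%. At another UFD1 donor, the coding junction chr22:19468004-19479082 had 290 of the 405 K562 reads (71.6%) and 7 of the 25 HepG2 reads (28.0%). The 5′ untranslated junction chr22:19471809-19479082 had 73 (18.02%) and 12 (48.0%).

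These shares moved with the reads counted. Among all mapped reads, the upstream RANBP1 acceptor took 64.7% in K562 and 52.9% in HepG2, 11.8 points apart, and no longer passed. The upstream UFD1 donor had 17.9% of the 435 K562 reads and 0 of the 137 HepG2 reads, also under 20 points. The longest UFD1 junction took 35.4% and 15.6%, 19.8 points apart. Only the 5′ untranslated UFD1 junction still passed, with 8.84% in K562 and 28.9% in HepG2. For RANBP1, 55.5% of mapped reads of the gene were unique. At the upstream acceptor, 1528 of 2837 mapped reads in K562 and 147 of 1028 in HepG2 were unique. At the downstream acceptor, 1527 of 1548 and 910 of 917 were. Counting unique reads only thus removed reads almost solely from the upstream acceptor, and a larger part of them in HepG2. Where these multiply mapped reads come from was not tested.

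**Figure D5:**
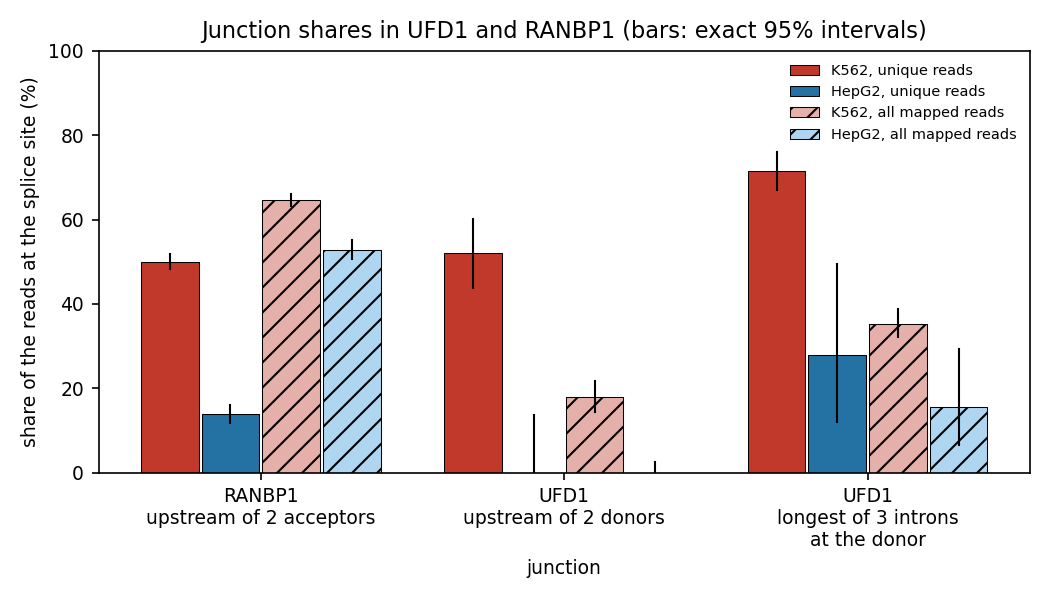
Share of reads in percent taken by 3 junctions at their splice site in K562 and HepG2, from unique and from all mapped reads, with exact 95% binomial intervals as error bars. The upstream RANBP1 acceptor took 50.02% of unique reads in K562 and 13.9% in HepG2 but 64.7% and 52.9% of all mapped reads, and the upstream UFD1 donor took 0% in HepG2 with both kinds of reads.

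Some junctions in the window carry more than 1 gene identifier and are not members. There are 51, with 8530 unique reads in K562 and 6836 in HepG2. Those shared by MIF and AP000350.4 were read 4325 times in K562 against 5841 in HepG2, far more than the single MIF member junction. The call of MIF toward HepG2 thus rested on 1 junction. Those shared by HIRA and C22orf39 had 261 and 117 reads and moved the log2 ratio of HIRA from 2.67 to 1.36. Those of BMS1P20 and ENSG00000236850.4 had 3267 and 310 reads, those of GNB1L and RTL10 246 and 23, and those of SEPTIN5 and GP1BB 181 and 0. These shared junctions before BCR were also read more in K562, whereas those of SCARF2 and AC007731.5, also before BCR, had 3 and 5 reads.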

How the data were processed

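Per the submitters' processing notes, cutadapt, Bowtie2, STAR 2.6.0 and the build GRCh38 were used. The role of each tool, the annotation and the junction counter are not stated there. Raw counts of reads per annotated splice junction were deposited, per the file headers, for all mapped and for uniquely mapped reads separately. Per the labels, each line had 1 table for its pair of samples. The window takes junction starts from 19.4 to 25.0 Mb. The members and gene lists were chosen with earlier results of these data known.

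Junctions were matched to introns of GENCODE release 29 (350016, 99.8%, and 1556 of the 1581 members), and 228 of 232 member genes had a symbol in the name table. A junction class took the coding annotation first where transcripts disagreed. Unique counts were summed per gene and scaled with TMM (edgeR 4.0.16), and ratios had Clopper-Pearson intervals (scipy 1.17.1). Genes crossing a window bound were split there. Reads lack molecular identifiers, so intervals and floors cover counting error only. With multiple mapping, 1 read may count at several places, so intervals from all mapped reads are too narrow. The scripts were tested on simulated data first.

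Any measured member could be named. Full values were given for the 8 genes with the highest lower bound, the 5 with the lowest upper bound, the 12 with the most reads, the 2 most-read of each list, and the 2 nearest to each bound and to BCR; other genes with full values were added after their values were seen. Some genes that this rule names are counted in the totals but not reported here. Alternatives were DESeq2 1.42.0 size factors, total reads, all mapped reads, read minimums, 99% intervals, coding junctions only, the most-read junction left out, summed reads, junctions of several genes counted for each, other site limits, and other annotation order.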

Additional observations from a re-analysis of the deposited data

Results flagged for a closer look

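Several segment genes had fewer than 20 unique reads and entered no comparison, yet had reads in the column of all mapped reads above the limit of 3 that a count of 0 allows. All mapped reads in K562 and HepG2 were 10 and 82 for USP41, 23 and 100 for GGT2P, and 1 and 21 for GGTLC2, all higher in HepG2. They were 31 and 22 for TMEM191A, 52 and 30 for TMEM191C, 125 and 37 for BMS1P20, 20 and 4 for HIC2, and 36 and 17 for BCRP3, all higher in K562. DDTL, next to its relative DDT, had 368 and 364. A read mapped to several places may belong to a copy elsewhere, and this was not tested. Window junctions with several gene identifiers held 8530 unique reads in K562 and 6836 in HepG2, which no gene total includes.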

How the results depend on the processing

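No paired analysis was possible because both samples of a line share 1 table, and for the same reason no replicate could be left out. Of the summary values recomputed, 70 stayed within their limits, 10 moved and 1 reversed; of the values for single named genes, 239 stayed, 39 moved and none (0) reversed. Scaling by total unique reads raised the median log2 ratio of all genes from -0.01 to 0.41. With it the median before BCR was 2.58 and that of the rest of chromosome 22 turned to 0.072, 24.2% of all genes were called higher in K562 and 17.6% higher in HepG2, and in the segment 33 and 7 were. The 8 segment genes called higher in HepG2 became 5 with a minimum of 100 reads and 3 with 20 reads in each table. The 6 junctions with a changed share became 2 with 50 reads at the site and 1 with all mapped reads. The 5′ untranslated share in K562 was 6.37% with the untranslated annotation first, 8.81% with all mapped reads and 3.55% without PRAME, and that in HepG2 was 2.20% with the untranslated annotation first and 3.91% with all mapped reads. Of 272 calls of 33 named genes under the alternatives, 5 changed. MIF was no longer called with total reads or with shared junctions (log2 -0.95 and -0.48), MRPL40 became called with total reads (1.39), and LZTR1 with total reads and without its most-read junction (1.54 and 1.23). Depth limits the weakly read genes: SCARF2, SLC2A11, PI4KAP2, LRRC75B, GNAZ and CCDC116 each had fewer than 30 reads over both tables.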
